A study of Mus musculus with 13 samples.

Results

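Lymphoid priming and commitment genes were followed through their chromatin: 9 genes (Flt3, Il7r, Notch1, Ikzf1, Bcl11a, Ebf1, Pax5, Rag1 and Rag2) in 8 genomic windows of the mm9 mouse genome, Rag1 and Rag2 sharing 1 window. A region belonged to a window when its midpoint lay inside it, whatever its signal. The windows held 106 of the 115295 accessible regions in the deposited table. Of these, 58 had enough reads to be tested and 48 did not.

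Each bulk library was made by Omni-ATAC-seq, which cuts and tags open DNA with a transposase, on 500 sorted haematopoietic stem cells (HSCs). Mice had received a single Vwf+ HSC and were classed by the blood lineages it restored over 16 weeks; all samples are labelled C57BL/6. PLT-HSC came from P-restricted recipients (3 libraries), PEM-HSC from PEM-restricted recipients (6 libraries) and MUL-HSC from multilineage recipients (4 libraries); the labels do not spell out P and PEM. In all 3 groups the cells were donor-derived and sorted from bone marrow by the phenotype LSKFlt3-CD150+CD48-CD45.2+Gata1-, where LSK is lineage-negative, Sca-1-positive and c-Kit-positive. Every library thus came from cells gated as negative for Flt3 protein on the surface. The donor cells of a recipient go back to 1 transplanted cell, and the labels leave unsaid if each library of a group is another recipient. P-values therefore measure only the spread between these libraries, which may be technical. The age and sex of the mice were not given.

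Totals were 2378024 to 3307889 counts in PLT-HSC, 1276962 to 3851165 in PEM-HSC and 1307222 to 2831520 in MUL-HSC. The member regions took 0.0858% to 0.0972% of the counts of a library. Accessibility is given in CPM, on totals of the tested regions only, which hold 91.4% of all counts, adjusted by TMM scaling. Whether the HSC phenotype holds in the chromatin of HSC marker genes was not analysed here, because no mm9 annotation was used to place them.

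As background, lymphoid fate is prepared in progenitors before it is fixed. Receptors for growth signals come first: Flt3, the receptor for Flt3 ligand, marks multipotent progenitors that have lost long-term self-renewal, Il7r carries the interleukin-7 signal that early B and T cell precursors need, and Notch1 directs progenitors in the thymus to the T lineage. The transcription factors Ikzf1 (Ikaros) and Bcl11a act in multipotent cells and are needed for lymphoid development, Ebf1 and then Pax5 fix the B lineage, and Rag1 and Rag2 cut the antigen receptor genes. Chromatin at such genes can be open before they are transcribed.

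The promoters of Flt3 and Ebf1 are printed because their windows held every region past the threshold below. They are RefSeq sequences of GRCm38.p6, from 250 bases before to 50 bases after an annotated start: chr5:147400440-147400739 (minus strand) for Flt3, chr11:44617850-44618149 and chr11:44619978-44620277 (plus strand) for 2 starts of Ebf1. The regions below are in mm9, so none was placed on these sequences. Capitals mark matches on either strand to a PU.1-like motif, GAGGAA, to a RUNX motif, TGTGGT, to a GATA factor motif, AGATAA, and to an E2A-like motif, CAGCTG. No marked match overlaps another.
Flt3: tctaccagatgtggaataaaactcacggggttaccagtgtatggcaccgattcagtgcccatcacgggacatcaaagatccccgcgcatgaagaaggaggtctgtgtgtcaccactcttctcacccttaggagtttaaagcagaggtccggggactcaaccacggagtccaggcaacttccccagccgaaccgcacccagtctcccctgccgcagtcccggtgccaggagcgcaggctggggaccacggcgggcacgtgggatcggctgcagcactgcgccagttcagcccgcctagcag
Ebf1, start 1: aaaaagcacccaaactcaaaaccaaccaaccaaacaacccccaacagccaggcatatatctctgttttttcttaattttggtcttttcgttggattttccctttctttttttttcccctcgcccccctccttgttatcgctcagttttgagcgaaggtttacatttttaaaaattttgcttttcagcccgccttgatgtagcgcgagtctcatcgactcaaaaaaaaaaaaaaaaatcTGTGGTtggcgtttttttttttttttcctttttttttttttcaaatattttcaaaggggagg
Ebf1, start 2: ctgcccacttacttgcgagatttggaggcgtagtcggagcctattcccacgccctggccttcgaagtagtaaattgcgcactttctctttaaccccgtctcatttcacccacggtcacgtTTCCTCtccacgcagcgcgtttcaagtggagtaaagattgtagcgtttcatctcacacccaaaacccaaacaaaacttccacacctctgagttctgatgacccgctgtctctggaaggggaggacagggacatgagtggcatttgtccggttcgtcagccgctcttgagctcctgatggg
These letters occurred in 28.3% (GAGGAA), 16.8% (TGTGGT), 11.2% (AGATAA) and 16.3% (CAGCTG) of 32851 mouse promoters of the same length. The Flt3 promoter, with a GC content of 61%, held none of the 4, the first Ebf1 promoter (GC 36.7%) held 1 match to the RUNX motif, and the second (GC 53%) held 1 to the PU.1-like motif, read on the other strand. All 9 genes matched the table, with 11 promoters. GAGGAA was found in 3 of them, TGTGGT in 3, CAGCTG in 1 and AGATAA in 0. A match describes letters and is not a binding site.

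The windows differed in how much open chromatin they held. Bcl11a had 17.7 regions per 100 kb, Ikzf1 15.8, Notch1 13.8, Flt3 12.0 and Rag1/Rag2 11.7, whereas Pax5 had 7.14 and Ebf1 4.32, beside 4.47 over the spans that the table's regions cover on each chromosome. The table listed no region in the Il7r window (chromosome 15, 9420000 to 9480000), so no value can be given for that gene. Per kb of listed region, mean accessibility over the 13 libraries was 33.9 CPM in the Notch1 window, 21.7 in Bcl11a, 18.1 in Rag1/Rag2, 16.9 in Flt3, 16.4 in Ikzf1, 8.75 in Ebf1 and 8.23 in Pax5, beside 17.3 over all regions. The B-lineage windows of Ebf1 and Pax5 were thus the least accessible of the 7 with regions, on this scale of levels per length. A window's strongest region held between 20.3% (Ebf1) and 41.2% (Notch1) of its mean signal. In Notch1 this was the region from 26300348 to 26301867, with its midpoint 1.11 kb inside the window start.

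Members passed the count filter unevenly. All 11 Notch1 regions were tested, 9 of 12 in Flt3, 14 of 23 in Bcl11a, 5 of 7 in Rag1/Rag2, 8 of 19 in Ikzf1, 8 of 19 in Ebf1 and 3 of 15 in Pax5. Regions that were not tested were narrower, with a median width of 295 bp beside 585.5 bp for those tested, and none averaged above 3.34 CPM. The filter asked for 3 libraries at its level. Of the 58, 39 met this among the MUL-HSC libraries alone and also among those of PLT-HSC and PEM-HSC, 15 met it only among PLT-HSC and PEM-HSC, and 4 only over all libraries together, so counts and medians over the tested members are given as description. The median spread of a tested member within groups was 0.40 on the log2 CPM scale, beside 0.37 for all 59408 regions tested.

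At an adjusted p of 0.05 (edgeR quasi-likelihood test, adjusted over all tested regions), PLT-HSC against MUL-HSC called 2 of 58 members (3.45%), 1 higher and 1 lower, beside a background of 2.41% of all tested regions (1.13% higher and 1.28% lower). That share is near the background. PEM-HSC against MUL-HSC called 2 of 58 (3.45%), both lower, beside 0.832% (0.242% higher and 0.589% lower). Tested over all 3 groups at once, 2 of 58 members passed, the same 2 Flt3 regions, beside 1.67%. PLT-HSC against PEM-HSC called 0 of 58, beside 0.00168%; DESeq2 also called 0, and at an unadjusted p under 0.05 there were 2 of 58 (3.45%), beside 4.61%, both in the Notch1 window. One of these was higher, beside 2.45%, and 1 lower, beside 2.16%. The first 2 comparisons share the MUL-HSC libraries, so their agreement is not independent. The median log2 fold change of the tested members was 0.01 for PLT-HSC over MUL-HSC, beside 0.01 for all tested regions. It was -0.05 for PEM-HSC over MUL-HSC (beside 0.01) and 0.05 for PLT-HSC over PEM-HSC (beside -3.9e-05). At an unadjusted p under 0.05, PLT-HSC differed from MUL-HSC in 13 of 58 members (22.4%, beside 15.4%), 5 higher (beside 7.47% of all tested regions) and 8 lower (beside 7.93%). For PEM-HSC against MUL-HSC there were 17 of 58 (29.3%, beside 13.6%), with 8 higher (beside 6.2%) and 9 lower (beside 7.45%).

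**Figure D1:**
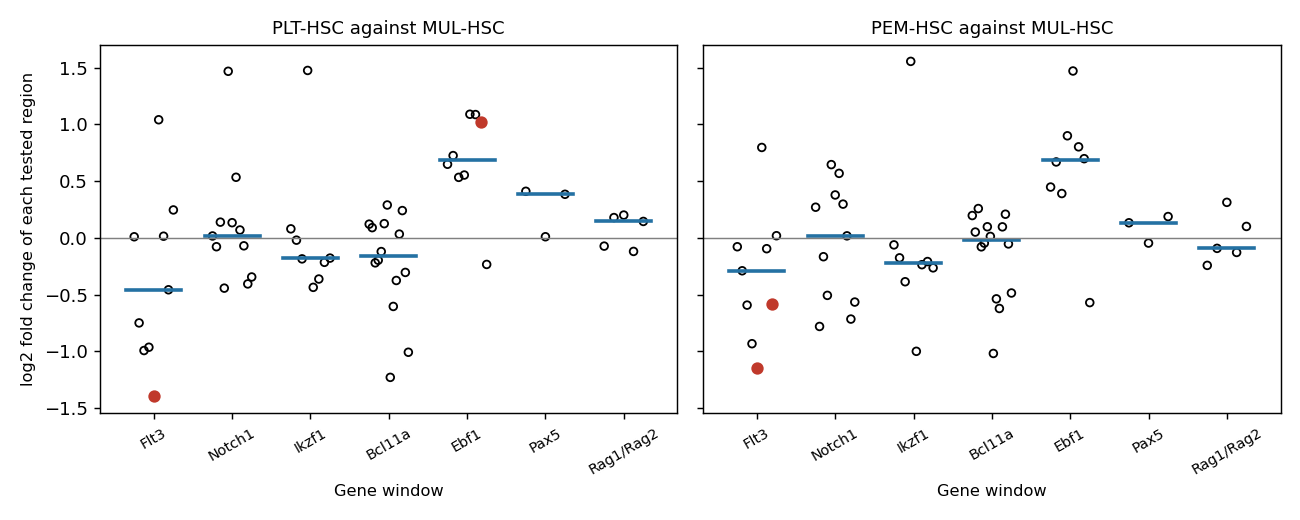
Log2 fold change (vertical axis) of each of the 58 tested regions by gene window (horizontal axis), for PLT-HSC against MUL-HSC on the left and PEM-HSC against MUL-HSC on the right. Filled points passed an adjusted p of 0.05, open points did not, and the horizontal bars are window medians: -0.46 and -0.29 for Flt3, 0.69 and 0.68 for Ebf1. Of the regions shown, 2 in Flt3 and 4 in Ebf1 passed the count filter only through PLT-HSC and PEM-HSC libraries. The medians are therefore description only.

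The Flt3 window (chromosome 5, 148130000 to 148230000) was less accessible in both restricted groups. Its summed accessibility was 97.0, 93.9 and 91.7 CPM in PLT-HSC, 83.2 to 109.5 CPM with a median of 95.4 in PEM-HSC, and 147.6, 133.1, 121.4 and 128.5 CPM in MUL-HSC. Every PLT-HSC and PEM-HSC library lay below every MUL-HSC library. Means were 94.2 ± 2.66 (SD, n = 3) in PLT-HSC, 95.02 ± 10.8 (SD, n = 6) in PEM-HSC and 132.6 ± 11.1 (SD, n = 4) in MUL-HSC, a log2 ratio of -0.49 for PLT-HSC and -0.48 for PEM-HSC over MUL-HSC, with no test on these sums. In bulk cells, fewer cells with an open region and a less open region in each cell cannot be told apart.

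**Figure D2:**
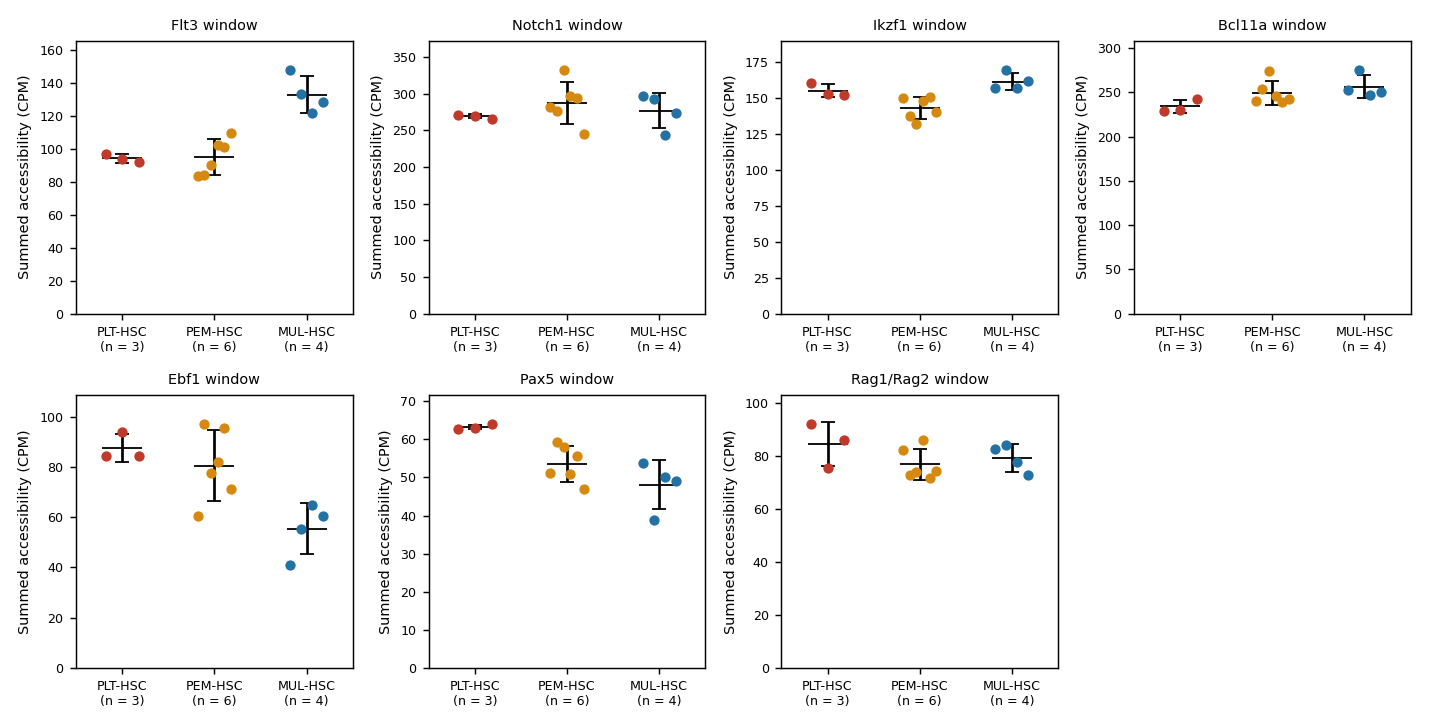
Summed accessibility in CPM (vertical axes, from 0) of all regions in each of the 7 windows that held any, by group; points are libraries, and bars are the mean and SD. PLT-HSC and PEM-HSC lie below MUL-HSC in the Flt3 window (94.2 and 95.02 against 132.6 CPM on average), while PLT-HSC lies above MUL-HSC in the Ebf1 and Pax5 windows (87.5 against 55.4 and 63.3 against 48.0 CPM).

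The region from 148177627 to 148178428 carried the clearest change. It had 9.11, 9.34 and 6.27 CPM in PLT-HSC, 6.31 to 13.8 CPM with a median of 8.72 in PEM-HSC, and 26.3, 24.0, 20.1 and 17.5 CPM in MUL-HSC. The restricted libraries all lay below the MUL-HSC libraries, and those of PLT-HSC and PEM-HSC overlapped. In PLT-HSC it fell to 0.379 of the MUL-HSC level (log2 fold change -1.40, SE 0.27, edgeR adjusted p = 0.00504). In PEM-HSC it fell to 0.451 of that level (-1.15, SE 0.22, edgeR adjusted p = 0.0117). PLT-HSC against PEM-HSC gave -0.25 with a 95% interval of -0.79 to 0.29. The call for PLT-HSC ended without the libraries under 2000000 counts (log2 fold change -1.20, adjusted p = 0.0743), after thinning to the smallest total (-1.08, 0.0574) and with 1 surrogate variable (-1.03, 0.715), all by edgeR. That for PEM-HSC ended without MUL-HSC replicate 1 (-1.05, adjusted p = 0.0695 by edgeR) or MUL-HSC replicate 2 (-1.11, 0.0535), without the libraries under 2000000 counts (-0.91, 0.383) and with 1 surrogate variable (-0.87, 0.768).

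The region from 148211507 to 148212339, centred 33.9 kb further along, was the most accessible of the Flt3 window per length, with 39.2 CPM per kb over all libraries. It had 31.2, 26.6 and 32.6 CPM in PLT-HSC, 22.8 to 32.5 CPM with a median of 28.6 in PEM-HSC, and 45.6, 31.4, 42.6 and 45.0 CPM in MUL-HSC. MUL-HSC replicate 2, at 31.4 CPM, lay among the restricted libraries, and the other MUL-HSC libraries lay above all of them. In PEM-HSC it fell to 0.669 of the MUL-HSC level (log2 fold change -0.58, SE 0.13, edgeR adjusted p = 0.0340). In PLT-HSC the log2 fold change of -0.46 ± 0.15 did not pass (edgeR adjusted p = 0.111), and the difference between PLT-HSC and PEM-HSC was 0.12 with a 95% interval of -0.17 to 0.42. The PEM-HSC call ended by DESeq2 (adjusted p = 0.0581) and, by edgeR, without MUL-HSC replicate 1 or 4 (0.133 and 0.171), PEM-HSC replicate 1 or 5 (0.0867 and 0.0588) or the libraries under 2000000 counts (0.184), after thinning (0.154) and with 1 surrogate variable (0.648), and its log2 fold change lay between -0.71 and -0.51 over 24 further fits.

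**Figure D3:**
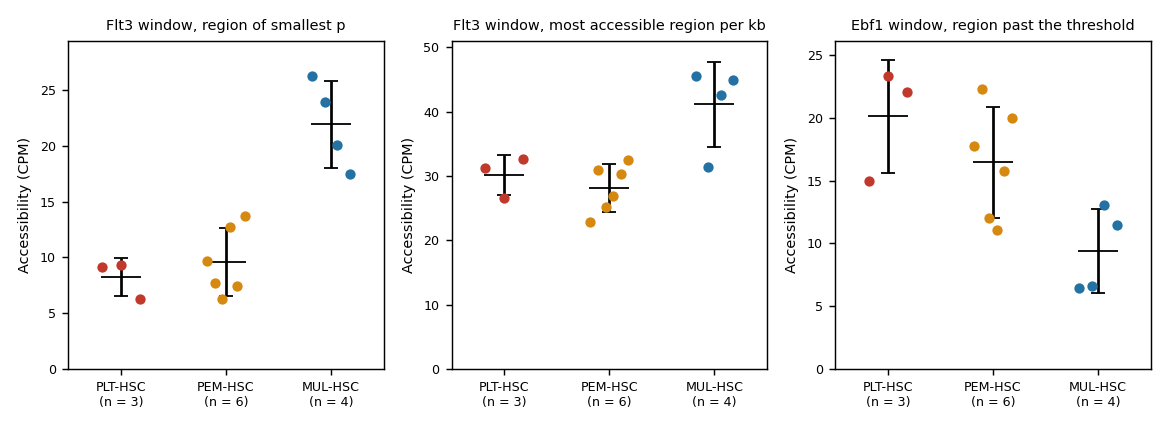
Accessibility in CPM (vertical axes, from 0) by library in the 3 member regions past the threshold, 2 in the Flt3 window and 1 in the Ebf1 window; points are libraries, and bars are the mean and SD per group. In the first panel PLT-HSC and PEM-HSC libraries lie between 6.27 and 13.8 CPM and MUL-HSC libraries between 17.5 and 26.3 CPM; in the third, PLT-HSC libraries lie at 15.0 CPM or above and MUL-HSC libraries at 13.04 CPM or below.

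The other tested Flt3 regions did not pass the threshold, and they did not all point one way. The region from 148174634 to 148174987, whose centre stood at -3.22 kb from that of the first, had 3.25, 5.14 and 7.26 CPM in PLT-HSC, 4.22 to 6.87 CPM with a median of 5.11 in PEM-HSC, and 10.3, 10.7, 11.03 and 9.15 CPM in MUL-HSC. No restricted library reached a MUL-HSC library there, with log2 fold changes of -0.96 for PLT-HSC (adjusted p = 0.0981, edgeR quasi-likelihood test) and -0.93 for PEM-HSC (0.0910, same test). The region from 148200316 to 148200994 had the opposite sign, with 13.3, 16.4 and 6.93 CPM in PLT-HSC, 7.07 to 14.6 CPM with a median of 9.31 in PEM-HSC, and 3.85, 4.96, 4.51 and 8.77 CPM in MUL-HSC. Its log2 fold changes were 1.04 for PLT-HSC (adjusted p = 0.101, same test) and 0.80 for PEM-HSC (0.235). This region passed the count filter only through PLT-HSC and PEM-HSC libraries, with 2 MUL-HSC libraries at its level. Its sign is therefore read as no support. Both regions were named after their values were seen. At an unadjusted p under 0.05, PLT-HSC differed from MUL-HSC in 6 of 9 Flt3 regions, beside 15.4% of all tested regions. Of these, 5 were lower (beside 7.93%). PEM-HSC differed from MUL-HSC in 5 of 9 (beside 13.6%), 4 of them lower (beside 7.45%). In each comparison the higher one was the region from 148200316. With the 2 called regions taken out, the Flt3 sums averaged 55.8 ± 2.68 CPM in PLT-HSC (SD, n = 3), 57.3 ± 7.52 in PEM-HSC (SD, n = 6) and 69.5 ± 8.87 in MUL-HSC (SD, n = 4). In these reduced sums every PLT-HSC library still lay below every MUL-HSC library, but PEM-HSC and MUL-HSC libraries overlapped.

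**Figure D4:**
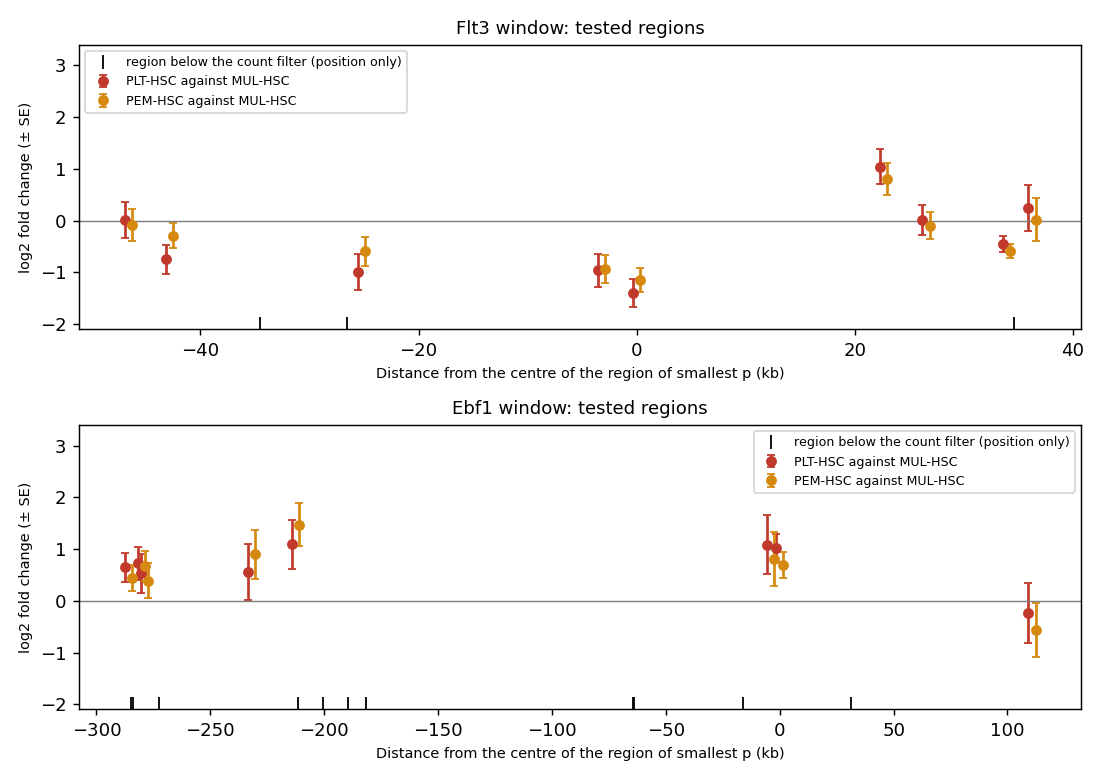
Log2 fold change with its SE (vertical axis) of each tested region against the distance in kb of its centre from that of the region of smallest p (horizontal axis), in the Flt3 window above and the Ebf1 window below; ticks at the foot mark regions below the count filter. In Flt3 the region at 0 kb has the lowest values, -1.40 and -1.15, and the one at 22.63 kb the highest, 1.04 and 0.80. In Ebf1 the region at 110.76 kb alone lies below 0 in both comparisons. Of the tested regions, 2 in Flt3, the one at 22.63 kb among them, and 4 in Ebf1 passed the count filter only through PLT-HSC and PEM-HSC libraries.

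Notch1 (chromosome 2, 26300000 to 26380000), the third receptor, showed no region past the threshold. Summed accessibility was 271.4, 270.02 and 266.1 CPM in PLT-HSC, 245.4 to 332.6 CPM with a median of 288.2 in PEM-HSC, and 296.5, 293.5, 244.3 and 274.5 CPM in MUL-HSC, and the groups overlapped. The most accessible region per length, from 26300348 to 26301867, lies at the edge of the window and had 106.6 ± 8.82 CPM in PLT-HSC (SD, n = 3), 126.8 ± 25.1 in PEM-HSC (SD, n = 6) and 105.4 ± 11.9 in MUL-HSC (SD, n = 4). In the region from 26327813 to 26328246, the one of smallest p when all 3 groups were tested at once, there were 16.6, 9.81 and 13.5 CPM in PLT-HSC, 5.01 to 10.2 CPM with a median of 8.44 in PEM-HSC, and 13.5, 19.8, 9.53 and 15.3 CPM in MUL-HSC. PEM-HSC was the lowest of the 3 groups on average, with a log2 fold change against MUL-HSC of -0.78 ± 0.24 (adjusted p = 0.119, edgeR quasi-likelihood test), which passed only without MUL-HSC replicate 3 among 24 further fits (-0.95, 0.0442, same test). Without that library 1215 regions of the whole table passed for PEM-HSC against MUL-HSC, beside 494 with it. PLT-HSC stood at 0.70 ± 0.25 against PEM-HSC (unadjusted p = 0.00857 by edgeR), which did not pass after adjustment. Against MUL-HSC, log2 fold changes of the 11 regions ran between -0.44 and 1.47 in PLT-HSC and between -0.78 and 0.64 in PEM-HSC. Both highest values are those of the region from 26346308, which held 11 MUL-HSC counts. It passed the count filter only through PLT-HSC and PEM-HSC libraries. At an unadjusted p under 0.05, 3 of the 11 were higher (beside 6.2% of all tested regions) and 3 lower (beside 7.45%) in PEM-HSC than in MUL-HSC.

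Of the early transcription factors, Ikzf1 (chromosome 11, 11570000 to 11690000) had 160.1, 152.8 and 152.4 CPM summed in PLT-HSC, 131.9 to 151.0 CPM with a median of 143.9 in PEM-HSC, and 157.2, 169.5, 157.0 and 161.7 CPM in MUL-HSC. PEM-HSC libraries lay below all libraries of the other groups, with log2 ratios of means of -0.17 for PEM-HSC over MUL-HSC and 0.12 for PLT-HSC over PEM-HSC. After thinning to the smallest total the second was -0.01, so that order of PLT-HSC and PEM-HSC did not hold. Over the 8 tested Ikzf1 regions, the highest log2 fold change against MUL-HSC was 1.47 for PLT-HSC and 1.55 for PEM-HSC. Both are those of the region from 11626088, which held 8 MUL-HSC counts. It passed the count filter only through PLT-HSC and PEM-HSC libraries, so these values are read as no support. No Ikzf1 region passed the threshold. The one of smallest p, from 11630058 to 11630701, had 6.53 ± 1.13 CPM in PLT-HSC (SD, n = 3), 4.02 ± 1.55 in PEM-HSC (SD, n = 6) and 8.61 ± 4.37 in MUL-HSC (SD, n = 4), with adjusted p of 0.143 for PEM-HSC against MUL-HSC (edgeR quasi-likelihood test). MUL-HSC ranged from 4.01 to 12.8 CPM in it, and without MUL-HSC replicate 3, its lowest library, PEM-HSC passed (log2 fold change -1.26, adjusted p = 0.0369, same test). That fit called 1215 regions of the whole table for PEM-HSC against MUL-HSC, beside 494 with all libraries. The most accessible per length, from 11688452 to 11689087, had 26.4 ± 1.87 CPM in PLT-HSC (SD, n = 3), 24.2 ± 4.73 in PEM-HSC (SD, n = 6) and 30.2 ± 1.99 in MUL-HSC (SD, n = 4).

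Bcl11a (chromosome 11, 23960000 to 24090000) had the most regions, 23, and none of the 14 tested passed, with log2 fold changes against MUL-HSC between -1.23 and 0.29 for PLT-HSC and between -1.02 and 0.26 for PEM-HSC. Its sums were 229.4, 230.3 and 242.7 CPM in PLT-HSC, 239.5 to 274.7 CPM with a median of 244.3 in PEM-HSC, and 252.9, 275.3, 246.8 and 250.1 CPM in MUL-HSC. PLT-HSC lay below MUL-HSC in every library by a small margin, a log2 ratio of means of -0.13, and PEM-HSC overlapped both. The region of smallest p over all 3 groups, from 24002406 to 24002811, had 0.651, 4.67 and 2.64 CPM in PLT-HSC, 1.27 to 4.01 CPM with a median of 2.72 in PEM-HSC, and 8.98, 4.13, 4.51 and 6.10 CPM in MUL-HSC. These levels rest on 20 counts in PLT-HSC, 41 in PEM-HSC and 44 in MUL-HSC, and the log2 fold changes against MUL-HSC of -1.23 ± 0.52 for PLT-HSC and -1.02 ± 0.43 for PEM-HSC did not pass (edgeR adjusted p = 0.235 and 0.282). The region from 23976084 to 23976589, the most accessible per length at 54.9 CPM per kb, had 25.5 ± 4.43 CPM in PLT-HSC (SD, n = 3), 27.8 ± 2.38 in PEM-HSC (SD, n = 6) and 29.2 ± 5.67 in MUL-HSC (SD, n = 4).

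Ebf1 (chromosome 11, 44400000 to 44840000), the factor that starts the B cell programme, held sums that differed in the direction opposite to Flt3, again with no test on sums. Its summed accessibility was 84.3, 93.9 and 84.4 CPM in PLT-HSC, 60.4 to 97.0 CPM with a median of 79.6 in PEM-HSC, and 41.1, 55.4, 64.7 and 60.6 CPM in MUL-HSC. Every PLT-HSC library exceeded every MUL-HSC library, and 1 PEM-HSC library, replicate 1 at 60.4 CPM, lay within the MUL-HSC range. The log2 ratios of means over MUL-HSC were 0.66 for PLT-HSC and 0.54 for PEM-HSC. Sums of the 8 tested regions averaged 71.1 CPM in PLT-HSC, 65.3 in PEM-HSC and 41.7 in MUL-HSC. Of these 8, 4 passed the count filter only through PLT-HSC and PEM-HSC libraries, so the sums of tested regions are description only. Those of the 11 untested regions averaged 16.5 CPM in PLT-HSC, 15.3 in PEM-HSC and 13.7 in MUL-HSC.

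One Ebf1 region passed, from 44710509 to 44711423. It had 15.0, 23.4 and 22.1 CPM in PLT-HSC, 11.03 to 22.3 CPM with a median of 16.7 in PEM-HSC, and 6.42, 6.61, 13.04 and 11.4 CPM in MUL-HSC. All PLT-HSC libraries exceeded all MUL-HSC libraries, and PEM-HSC reached into both ranges. In PLT-HSC it rose to 2.03 times the MUL-HSC level (log2 fold change 1.02, SE 0.27, edgeR adjusted p = 0.0378). PEM-HSC against MUL-HSC gave 0.70 ± 0.25 (adjusted p = 0.181, same test), and PLT-HSC against PEM-HSC 0.32 with a 95% interval of -0.14 to 0.79. The call ended by DESeq2 (adjusted p = 0.0570), and by edgeR without MUL-HSC replicate 1, 2 or 4 (0.136, 0.108 and 0.0760) or PLT-HSC replicate 2 or 3 (0.137 and 0.0888), without the libraries under 2000000 counts (0.320), without robust estimation (0.0523) and with 1 surrogate variable, which lowered the log2 fold change to 0.33 (0.944).

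The remaining Ebf1 regions did not pass. Of the 8 tested, 4 passed the count filter only through PLT-HSC and PEM-HSC libraries, with too few MUL-HSC libraries at its level, so the sign of their log2 fold changes against MUL-HSC is read as no support. The values of all 8 ran between -0.23 and 1.09 for PLT-HSC and between -0.57 and 1.47 for PEM-HSC, the region from 44821506 being lowest in both. The region from 44497939 to 44498495 had 7.48, 3.27 and 4.29 CPM in PLT-HSC, 3.76 to 11.5 CPM with a median of 6.69 in PEM-HSC, and 0.642, 1.65, 3.01 and 3.43 CPM in MUL-HSC. All PEM-HSC libraries exceeded the MUL-HSC libraries there, though MUL-HSC held only 18 counts, and the log2 fold change of 1.47 ± 0.42 did not pass (adjusted p = 0.0868, edgeR quasi-likelihood test). It was named after its values were seen. It is among the 4 regions that passed the filter only through PLT-HSC and PEM-HSC libraries. Its separation and fold change are therefore also read as no support. The most accessible region per length, from 44430387 to 44430895, had 12.3 ± 2.87 CPM in PLT-HSC (SD, n = 3), 11.2 ± 4.20 in PEM-HSC (SD, n = 6) and 7.05 ± 2.28 in MUL-HSC (SD, n = 4), with an adjusted p against MUL-HSC of 0.266 for PLT-HSC and 0.288 for PEM-HSC (same test).

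Pax5 (chromosome 4, 44530000 to 44740000), which maintains B cell identity, had a low level of accessibility per length of region. Its sums were 62.8, 63.1 and 64.0 CPM in PLT-HSC, 46.9 to 59.2 CPM with a median of 53.3 in PEM-HSC, and 53.9, 38.9, 50.2 and 49.2 CPM in MUL-HSC, with PLT-HSC above every library of both other groups. The difference lay partly in the 12 regions too weak to test, which summed to 20.2 to 22.9 CPM in PLT-HSC, 15.3 to 18.9 in PEM-HSC and 13.2 to 17.1 in MUL-HSC. Of the 3 tested regions none passed. The strongest per length, from 44716791 to 44717711, which also had the smallest p, had 23.1, 26.6 and 24.4 CPM in PLT-HSC, 15.0 to 25.8 CPM with a median of 21.5 in PEM-HSC, and 24.4, 16.5, 15.5 and 19.1 CPM in MUL-HSC (log2 fold change 0.38 ± 0.19 for PLT-HSC against MUL-HSC, adjusted p = 0.345, edgeR quasi-likelihood test).

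The window of the recombinase genes Rag1 and Rag2 (chromosome 2, 101460000 to 101520000) had sums of 92.1, 75.7 and 86.1 CPM in PLT-HSC, 71.9 to 86.3 CPM with a median of 74.2 in PEM-HSC, and 82.8, 84.3, 77.7 and 72.8 CPM in MUL-HSC, and all groups overlapped. None of its 5 tested regions reached an unadjusted p of 0.05 in any comparison. The region from 101468511 to 101469440, both the strongest per length and that of smallest p, had 36.8 ± 4.46 CPM in PLT-HSC (SD, n = 3), 30.3 ± 5.14 in PEM-HSC (SD, n = 6) and 32.6 ± 5.49 in MUL-HSC (SD, n = 4). PLT-HSC minus MUL-HSC was 0.18 in it on the log2 scale, with a 95% interval of -0.16 to 0.51.

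Across all windows, PLT-HSC and MUL-HSC libraries lay fully apart in 9 of the 58 tested members (15.5%), beside 13.2% of all tested regions. In 3 of the 9 PLT-HSC was higher (beside 6.67%) and in 6 lower (beside 6.56%), 4 of those 6 in the Flt3 window. PEM-HSC and MUL-HSC lay apart in 4 members (6.90%), beside 3.59%, with 1 higher (beside 1.51%) and 3 lower (beside 2.08%). Some of the higher members passed the count filter only through PLT-HSC and PEM-HSC libraries and are read as no support. For PLT-HSC these were the regions from 11626088 (Ikzf1) and 44431727 (Ebf1). For PEM-HSC it was the region from 44497939 (Ebf1). PLT-HSC and PEM-HSC lay apart in 0 members, beside 2.29% (1.32% higher and 0.968% lower). The windows were not checked against an mm9 gene annotation. Regions are assigned to windows by position only, and a window can hold part of a neighbouring gene. In RefSeq GRCm38.p6 the nearest protein-coding neighbours are Urad and Pan3 for Flt3, Sec16a and Egfl7 for Notch1, and Rnf145 and Clint1 for Ebf1. They are 4930512M02Rik and Fignl1 for Ikzf1, Papolg and Fancl for Bcl11a, and Melk and Zcchc7 for Pax5. Rag2 lies between Lrrc4c and Rag1, and Rag1 between Rag2 and Traf6. Near the end of the Rag1/Rag2 window, at 101520000, the region from 101518339 to 101519306 averaged 27.6 CPM.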

How the data were processed

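For the 13 libraries the authors deposited a table of raw counts: whole numbers, 1 per region and library, with no normalization. The submitters' processing notes name the mm9 build and MACS2, Picard, SAMtools, Bowtie2, FastQC and Trim Galore. Their versions and settings, the way reads were counted, the handling of duplicates, pooling for peak calling and any shift of read ends were not given in the sources used here. Whether region starts count from 0 or 1 is not given either. If peaks were called mainly in the deeper libraries, weak regions of shallow ones would be missed.

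Counts were analysed in R 4.3.3. filterByExpr by group kept 59408 regions with 91.4% of all counts. All 13 libraries entered 1 robust quasi-likelihood fit of edgeR 4.0.16 with TMM scaling of the totals over the regions kept, on which CPM also rest, tested two-sided, with Benjamini-Hochberg adjustment over those 59408 regions and a threshold of 0.05. An SE is the log2 fold change over the root of F. Window sums cover all regions of a window and were not tested. The biological coefficient of variation was 15.6%. The 24 pairs of libraries within groups differed beyond sampling noise (chi-square per degree of freedom 1.45 to 2.23).

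The text names every called member and, per window, the region of smallest p among the 3 groups and the one of highest mean CPM per kb. The genes, windows and motifs were chosen with earlier results of these data known. Alternatives were DESeq2 1.42.0, other scalings and filters, a fit of 2 groups, a replicate block, no robust estimation, 1 surrogate variable (sva 3.50.0), thinning, wider windows and leaving libraries out.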

Additional observations from a re-analysis of the deposited data

Results flagged for a closer look

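In the Notch1 window, the region from 26300348 to 26301867 had 175 CPM in PEM-HSC replicate 3, apart from the other PEM-HSC libraries at 101.4 to 123.1 CPM. It was 1 of 38 groups of values examined for a library far from the rest, and chance alone marks about 1 in 20.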

How the results depend on the processing

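Of 96 refits of the 4 calls, 69 kept them, 27 lost them and 0 changed sign. Those that kept them include every refit without a library of the group outside the comparison, which leaves the compared libraries unchanged. For PLT-HSC against MUL-HSC the 2 members called became 1 by DESeq2, with the replicate block, without robust estimation and after thinning, and 0 with 1 surrogate variable or without libraries under 2000000 counts; leaving out 1 library gave 1 to 3. For PEM-HSC against MUL-HSC the 2 became 1 by DESeq2 and after thinning, with 445 and 341 regions of the whole table beside 494. They became 0 with the replicate block, with 1 surrogate variable or without libraries under 2000000 counts, with 108, 1 and 13 regions. Leaving out 1 library gave 0 to 4 members, beside 61 to 1215 regions of the whole table. The 0 came without MUL-HSC replicate 1 (83 regions) and the 4 without MUL-HSC replicate 3 (1215 regions). For PLT-HSC against PEM-HSC every alternative gave 0 members, beside 0 to 11 regions of the whole table. The surrogate variable followed the first principal component (correlation 0.996 in size), and group membership held 65.7% of its variance. Leaving out libraries under 2000000 counts keeps 8 of 13 libraries (2 fewer in MUL-HSC, 3 fewer in PEM-HSC). Same-numbered libraries did not deviate together (correlations -0.136 to 0.0992), so the numbers were not taken as pairs; under the block 682 regions of the whole table passed for PLT-HSC against MUL-HSC beside 1431, and 108 for PEM-HSC against MUL-HSC beside 494. With the block the first Flt3 region kept its PLT-HSC call and had an adjusted p of 0.0507 for PEM-HSC, the second Flt3 region had 0.0867 for PEM-HSC and the Ebf1 region 0.136 for PLT-HSC (edgeR). Window sums moved by less than the spread between libraries under 16 alternatives each, except Ikzf1 after thinning, with log2 ratios of -0.13 for PLT-HSC against MUL-HSC (-0.06 before) and -0.012 for PLT-HSC against PEM-HSC (0.12 before); the causes were not tested. The Flt3 log2 ratios stayed between -0.54 and -0.43 and those of Ebf1 between 0.42 and 0.73 against MUL-HSC. With no filter on low counts all 106 members were tested, and 2, 2 and 0 were called in the 3 comparisons, beside 2078, 644 and 4 regions of the whole table.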

Other observations

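Window edges decide membership, and strong regions lay on both sides of them. The region just outside the end of the Flt3 window, from 148229659 to 148230699, had its midpoint 0.18 kb beyond the edge and averaged 27.0 CPM over the 13 libraries, while the nearest inside averaged 4.11 CPM. At the start of the Notch1 window the region from 26300348 to 26301867 had its midpoint 1.11 kb inside and averaged 115.5 CPM. Over all edges, the nearest regions inside averaged 0.876 to 115.5 CPM (14 regions) and those outside 0.782 to 57.0 CPM (16 regions). The nearest regions beside the empty Il7r window lay 26.4 kb before it and 46.6 kb after it, at 1.71 and 5.32 CPM. Widening the windows by 50 kb on each side raised the tested members to 100 and called the same number in each comparison. These were 2 of 100 for PLT-HSC against MUL-HSC, beside 2.41% of all tested regions, and 2 for PEM-HSC against MUL-HSC, beside 0.832%. For PLT-HSC against PEM-HSC there were 0, beside 0.00168%.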
